A study of Homo sapiens with 6 samples.

Results

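The distal appendages are blades on the far end of the mother centriole, the older centriole of a centrosome. They dock the mother centriole to a membrane, which is the first step in building a primary cilium, the single antenna-like organelle of a resting cell. CEP83 anchors the appendages to the centriole wall and brings in SCLT1, and these in turn hold CEP89, CEP164, FBF1, ANKRD26 and LRRC45. CEP164 recruits the kinase TTBK2, which triggers removal of the cap that blocks outgrowth of the cilium. These 8 genes were taken by symbol from a table of 60666 genes on the main chromosomes. All 8 were found once, and all 8 passed the filter of a mean of at least 1 FPKM (fragments per kilobase of transcript, scaled to the mapped fragments of the sample), which left 12025 genes for testing.

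RNA was sequenced from 6 samples of hTERT-RPE1 cells, a line derived from human retinal pigment epithelium and immortalised with telomerase. By the labels, all 6 were wild type in genotype and carried the same inducible short hairpin RNA against OFD1. OFD1 is a protein of the distal end of centrioles that is needed to form distal appendages. The paper also places it in centriolar satellites, protein granules near the centrosome, and reports that RPE1 cells formed primary cilia after its depletion. RNA levels do not measure the appendages themselves. The 3 OFD1-depleted samples were given 200 ng/mL doxycycline for 72 h to switch on the hairpin, and the 3 control samples of the same 72 h were not. The study's methods describe the line as made by lentivirus and drug selection. Because doxycycline was given to the depleted samples alone, the effect of the drug and that of the hairpin cannot be told apart.

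OFD1 itself was at 3.34, 3.62 and 3.44 FPKM in the control samples and at 0.795, 0.763 and 1.43 FPKM in the depleted samples, lower in all 3. For the retina named in the labels' source field, photoreceptors were not seen, as 5 of 6 marker genes were at 0 in every sample. The other, ARR3, was at no more than 0.141 FPKM. Among 6 markers of other retinal neurons and glia, 5 were below 1 FPKM throughout, and SNAP25 was at 0.379 to 1.30 FPKM. KRT8, KRT18, VIM and TERT were present in every sample. Of 7 markers of differentiated pigment epithelium, 5 were below 1 FPKM throughout, MITF was at 5.06 to 7.75 FPKM, and BEST1 was at 4.33 FPKM in depleted replicate 2 and at no more than 0.0475 FPKM in the other samples. The table holds no counts, and depth could not be recovered from the low values. OFD1-depleted replicate 2 stood apart. Its FPKM summed to 493510, against 433262 to 444337 in the other depleted samples and 408302 to 414547 in the control samples, and its long mRNAs were low relative to its short ones (median log2 difference from the other depleted samples of 0.34 for mRNAs under 1500 bases and -0.44 for those over 6000 bases). All 8 members have mRNAs over 1500 bases, so their values are also given without it.

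SCLT1 and LRRC45 fell with OFD1 depletion, to 37.4% and 60.0% of their control means, while CEP89 and CEP164 stood at -0.01 and -0.02 on the log2 scale. TTBK2, FBF1, CEP83 and ANKRD26 lay between these pairs and did not pass the test. Thus 2 of 8 members were called lower and 0 of 8 higher by limma at an adjusted p under 0.05, where 11.9% of all genes tested were called lower and 5.07% higher. Those shares depend on the scaling of the samples (1429 lower and 610 higher genes as deposited, 1988 and 268 with each sample scaled to the same total), and the 2 calls among the members were the same under both. In 3 of 8 members every depleted value was below every control value, where 22.3% of all genes tested showed this. The fitted log2 fold change was below 0 in 8 of 8 members and in 6460 of the 12025 genes tested. That sign turned for CEP89 and CEP164 under other scalings, and it held for the other members under every alternative that tested them. The median log2 fold change was -0.38 over the members and -0.03 over all genes tested. Folds are on the scale of log2(FPKM + 0.1), which understates changes of low genes such as TTBK2.

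Genes of dividing cells were lower in the same samples. All 8 of 8 proliferation markers, among them MKI67, TOP2A and CCNB1, were called lower, where 11.9% of all genes tested were. The markers were chosen with earlier results of these data known. Their summed expression was 281 to 321 FPKM in the control samples and 102 to 117 FPKM in the depleted samples. In bulk RNA, fewer cells of a type and less RNA per cell cannot be told apart. The part of this in the fall of SCLT1 and LRRC45 was not tested.

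**Figure D1:**
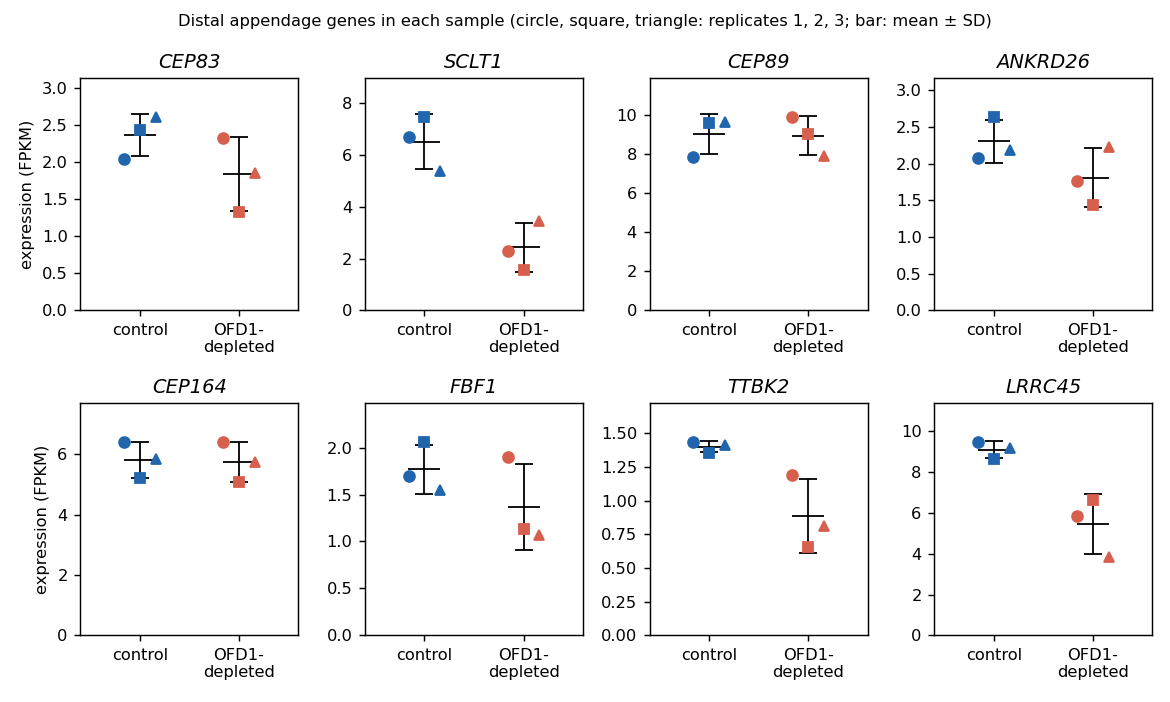
Expression (FPKM, each axis from 0) of the 8 distal appendage genes in 3 control samples (blue) and 3 OFD1-depleted samples (red), with circles, squares and triangles for replicates 1, 2 and 3 and bars for mean ± SD. The groups do not overlap for SCLT1, LRRC45 and TTBK2, and they overlap for the other 5 genes.

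CEP83 (ENSG00000173588, chr12:94306449-94459988 on the minus strand, GRCh38), the innermost component, was at 2.04, 2.43 and 2.60 FPKM in the control samples and at 2.33, 1.33 and 1.85 FPKM in the depleted samples. The groups overlapped, because depleted replicate 1 lay among the control values. The log2 fold change was -0.37 (SE 0.239, adjusted p = 0.325), and it was -0.17 without depleted replicate 2.

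SCLT1 (ENSG00000151466, chr4:128864921-129093600 on the minus strand), which CEP83 brings to the centriole, was at 6.68, 7.46 and 5.36 FPKM in the control samples and at 2.29, 1.56 and 3.45 FPKM in the depleted samples. All 3 depleted samples were well below all 3 control samples, and the lowest was depleted replicate 2. The mean went from 6.50 ± 1.06 to 2.43 ± 0.954 FPKM (SD, n = 3), a log2 fold change of -1.44 (SE 0.254, adjusted p = 0.00287), which is the steepest fall of the 8 members. Without depleted replicate 2 it was -1.17 (adjusted p = 0.00404). The call held with any 1 sample left out. Of the alternatives that tested SCLT1, it was lost only when genes of low expression were not filtered (adjusted p = 0.0582). Under the filter of 5 FPKM SCLT1 was not tested, as its mean over the 6 samples was 4.47 FPKM. By exact permutation of the 6 FPKM values p was 0.1, two-sided, the smallest that 3 samples against 3 can give, and LRRC45 and TTBK2 gave the same.

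CEP89 (ENSG00000121289, chr19:32875925-32971991 on the minus strand), which is needed for the vesicle to dock, was at 7.85, 9.62 and 9.68 FPKM in the control samples and at 9.91, 9.03 and 7.93 FPKM in the depleted samples. The highest value of all was that of depleted replicate 1, and the groups covered nearly the same range. The log2 fold change was -0.01 with a 95% interval from -0.34 to 0.31 (adjusted p = 0.962), so a fall as steep as that of SCLT1 is outside the interval.

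CEP164 (ENSG00000110274, chr11:117314557-117413266 on the plus strand), the outer component that binds TTBK2, was at 6.39, 5.21 and 5.85 FPKM in the control samples and at 6.41, 5.08 and 5.76 FPKM in the depleted samples. The 2 groups held nearly the same 3 values. The log2 fold change was -0.02 with a 95% interval from -0.36 to 0.32 (adjusted p = 0.950). The sign of both CEP89 and CEP164 turned under other scalings and with some samples left out, so no direction is given for either. Without depleted replicate 2 they were at -0.02 and 0.07.

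ANKRD26 (ENSG00000107890, chr10:26973793-27100494 on the minus strand), which brings the death-domain protein PIDD1 to the appendages, was at 2.08, 2.63 and 2.19 FPKM in the control samples and at 1.76, 1.43 and 2.23 FPKM in the depleted samples. Only depleted replicate 3 reached into the control range. The log2 fold change was -0.35 (SE 0.225, adjusted p = 0.332), and -0.20 without depleted replicate 2. FBF1 (ENSG00000188878, chr17:75909574-75941140 on the minus strand), which sits between the blades and takes part in gating the cilium, was at 1.69, 2.06 and 1.55 FPKM in the control samples and at 1.90, 1.14 and 1.07 FPKM in the depleted samples. Here depleted replicate 1 lay within the control range and the other 2 below it. The log2 fold change was -0.38 (SE 0.271, adjusted p = 0.378), and it was -0.63, -0.28 and -0.24 without depleted replicate 1, 2 and 3.

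LRRC45 (ENSG00000169683, chr17:82023305-82031151 on the plus strand), which also forms part of the fibres that link the centrioles of a pair, was at 9.46, 8.63 and 9.15 FPKM in the control samples and at 5.87, 6.65 and 3.83 FPKM in the depleted samples. The control samples were close together, and the depleted samples were all lower and more spread. The mean went from 9.08 ± 0.417 to 5.45 ± 1.45 FPKM (SD, n = 3), a log2 fold change of -0.76 (SE 0.193, adjusted p = 0.0198). Leaving out control replicate 1, 2 or 3 or depleted replicate 3 ended the call, with adjusted p = 0.0667, 0.0566, 0.0675 and 0.0539, while leaving out depleted replicate 2 gave -0.92 (adjusted p = 0.00585). Without the filter on low expression the adjusted p was 0.122.

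TTBK2 (ENSG00000128881, chr15:42738730-42920809 on the minus strand), the kinase that CEP164 recruits, was at 1.43, 1.35 and 1.41 FPKM in the control samples and at 1.19, 0.653 and 0.814 FPKM in the depleted samples. The control samples were close together, and every depleted sample was below them. The log2 fold change was -0.64 (SE 0.291, unadjusted p = 0.0491 from limma), and it did not pass over all genes (adjusted p = 0.162). Without depleted replicate 2 it was -0.47 (adjusted p = 0.239). No alternative brought it past the threshold. Its depleted mean of 0.885 FPKM lies under the filter of 1 FPKM, which was set on the mean of all 6 samples.

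**Figure D2:**
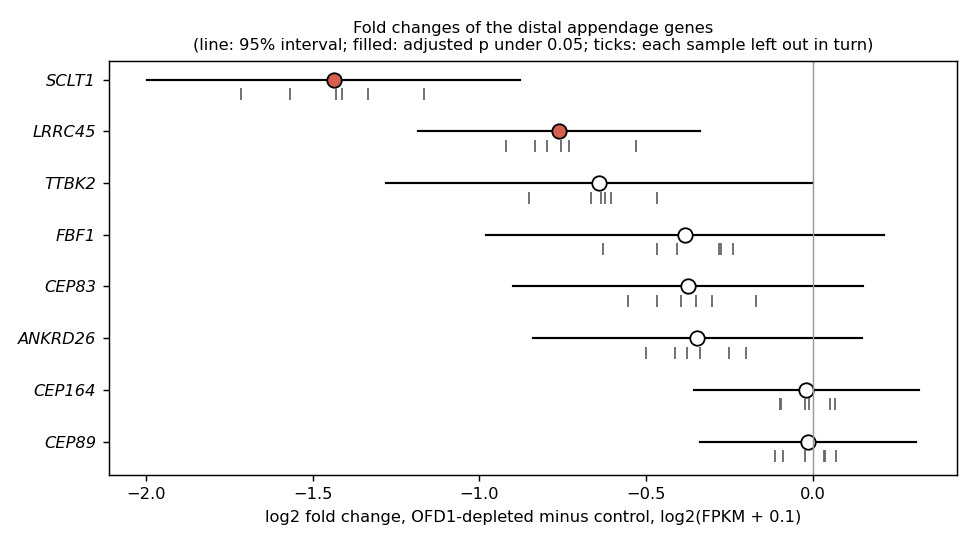
Log2 fold change (OFD1-depleted minus control) of the 8 members with 95% intervals from limma, filled where the adjusted p was under 0.05, with grey ticks for the value when each of the 6 samples was left out. The ticks of SCLT1 run from -1.72 to -1.17, and those of CEP89 and CEP164 fall on both sides of 0.

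The order of the genes by expression per length also differed between the groups. In the control samples LRRC45 (9.08 FPKM) and CEP89 (9.05 FPKM) had the highest means and overlapped, followed by SCLT1 (6.50 FPKM) and CEP164 (5.82 FPKM), which also overlapped. CEP83 and ANKRD26 formed a lower pair, and FBF1 and then TTBK2 lay below without overlap. In the depleted samples CEP89 stood alone at the top (8.96 FPKM), CEP164 (5.75 FPKM) and LRRC45 (5.45 FPKM) overlapped, and SCLT1 had moved down to overlap CEP83 (1.83 FPKM).

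Summed over the 8 genes, expression was 37.6, 39.4 and 37.8 FPKM in the control samples and 31.6, 26.9 and 26.9 FPKM in the depleted samples. SCLT1 made up 17.0% ± 2.47 of this sum in the control samples and 8.62% ± 3.70 in the depleted samples (SD, n = 3). The share of CEP89 went from 23.6% ± 2.47 to 31.5% ± 2.08 and that of CEP164 from 15.2% ± 1.89 to 20.2% ± 1.25. The log2 fold changes of both genes were near 0. The share of a steady gene rises when other members of the sum fall, so this is not a separate change of CEP89 or CEP164. The share of LRRC45 overlapped between the groups (24.8% in depleted replicate 2). Within the depleted group, 5 members were lowest in replicate 2, 3 in replicate 3 and 0 in replicate 1.

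The position of depleted replicate 2 was seen in genes by mRNA length, over 12000 tested genes with a length. No member has an mRNA under 1500 bases, 2 have one of 1500 to 3000 bases (SCLT1 and LRRC45), 4 of 3000 to 6000 bases and 2 over 6000 bases (ANKRD26 and TTBK2). Among all genes of these 3 classes, 11.4%, 14.8% and 14.4% were called lower, against 5.60% of those under 1500 bases. The median log2 fold change over all genes of the 3 classes was -0.01, -0.07 and -0.16 with all samples, and -0.04, -0.01 and -0.03 without depleted replicate 2. When it was left out, the log2 fold changes of SCLT1, TTBK2, CEP83, ANKRD26 and FBF1 moved towards 0 and that of LRRC45 moved away from 0. With it left out, SCLT1 and LRRC45 were called, as with all 6 samples.

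The promoters of SCLT1 and LRRC45, which fell, and of CEP89, whose fold change was near 0, are shown for comparison, because many genes of dividing cells carry CCAAT boxes and a cell cycle genes homology region near their start. The sequences are from RefSeq (GRCh38.p14), which holds a promoter window for all 8 genes, and run 5′ to 3′ on the gene's strand from 250 bases before the start site to 50 after it. They lie at chr4:129093490-129093789 (minus strand), chr17:82023055-82023354 (plus strand) and chr19:32971909-32972208 (minus strand). Capitals mark CCAAT and TTTGAA, read on either strand, so that a match on the other strand is printed as ATTGG or TTCAAA.
SCLT1: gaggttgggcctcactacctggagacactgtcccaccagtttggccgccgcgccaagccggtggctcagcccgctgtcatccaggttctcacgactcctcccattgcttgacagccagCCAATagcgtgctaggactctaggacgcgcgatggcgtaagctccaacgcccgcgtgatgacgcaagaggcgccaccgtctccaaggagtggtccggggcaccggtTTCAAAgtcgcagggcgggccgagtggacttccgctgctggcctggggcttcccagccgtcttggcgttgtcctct
LRRC45: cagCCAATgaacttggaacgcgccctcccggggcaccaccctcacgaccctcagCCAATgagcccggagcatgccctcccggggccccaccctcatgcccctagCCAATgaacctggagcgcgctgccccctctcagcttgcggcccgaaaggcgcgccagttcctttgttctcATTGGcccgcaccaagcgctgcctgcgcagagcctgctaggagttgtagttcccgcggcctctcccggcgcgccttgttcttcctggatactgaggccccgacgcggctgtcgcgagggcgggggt
CEP89: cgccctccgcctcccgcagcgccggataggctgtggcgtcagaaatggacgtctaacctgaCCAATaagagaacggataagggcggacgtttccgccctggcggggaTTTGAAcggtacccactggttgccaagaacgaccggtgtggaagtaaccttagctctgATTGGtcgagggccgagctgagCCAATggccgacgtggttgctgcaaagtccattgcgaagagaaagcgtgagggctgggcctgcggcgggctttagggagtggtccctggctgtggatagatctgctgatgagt
SCLT1 has 1 CCAAT, with its first base at -132 from the start site, and TTTGAA on the other strand at -26. LRRC45 has 4 CCAAT, at -247, -196, -146 and -76, and no TTTGAA. CEP89 has 3 CCAAT, at -189, -85 and -63, and TTTGAA at -143.

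Of the 8 genes, 7 have at least 1 CCAAT in a window, and FBF1 has none. Counted by window this is 7 of 9, against 34.6% of the 35116 promoter windows of all genes, expressed or not. At least 4 CCAAT, as in LRRC45, occur in 0.991% of promoters. TTTGAA is in 2 of 8 members (2 of 9 windows) and in 15.2% of promoters. The E2F words TTTCCCGC, TTTGGCGC, TTTCGCGC and TTTGCCGC (3.31% of promoters) and the RFX X-box (0.490% of promoters) were found in 0 of 8. CCAAT and TTTGAA share no base in these windows. CEP83 has a pair of windows for its 2 listed starts, of which 1 holds a CCAAT, and the window of CEP164 lies inside the gene as the table bounds it.

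**Figure D3:**
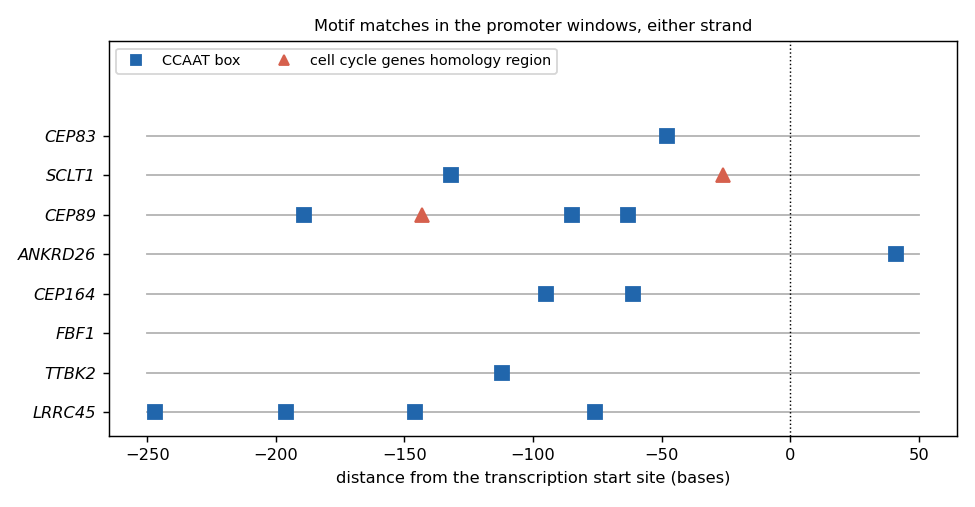
Positions of CCAAT (blue squares) and TTTGAA (red triangles, the core of the cell cycle genes homology region) in the promoter windows of the 8 members, in bases from the transcription start site (dotted line at 0). LRRC45 has 4 CCAAT matches, FBF1 has none, and TTTGAA is seen in SCLT1 and CEP89 alone.

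The genes that work beside the distal appendages were compared in 5 lists, in which 11 of 37 tested genes were called lower and 0 higher. Over all genes tested, 11.9% were called lower and 5.07% higher. The 11 include OFD1, the target of the hairpin, and 6 genes of the subdistal appendages, described below. Of 5 other proteins placed at the distal appendages, 0 were called by limma (0 with an unadjusted p under 0.05 as well), with a median log2 fold change of -0.19. INPP5E, a phosphoinositide phosphatase of the cilium, was at 7.95 ± 0.739 and 6.53 ± 1.43 FPKM (log2 fold change -0.30, adjusted p = 0.266). KIZ, a centrosomal protein, was at 1.82 ± 0.282 and 2.28 ± 0.382 FPKM (0.31, adjusted p = 0.379), and NCS1, a calcium sensor, at 14.8 ± 2.20 and 12.8 ± 1.15 FPKM (-0.20, adjusted p = 0.395). PIDD1, the partner of ANKRD26, was at 4.50 ± 0.240 and 3.95 ± 0.592 FPKM.

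Among 7 factors needed to build the distal appendages, 2 were called lower (11.9% of all genes tested were), and the median was -0.25. One was OFD1, the target of the hairpin (log2 fold change -1.75, SE 0.255, adjusted p = 0.000850), and the other was KIAA0586, which acts with OFD1 at the distal end (-0.68, SE 0.210, adjusted p = 0.0480). The call of KIAA0586 was lost when any sample other than depleted replicate 1 was left out, with adjusted p up to 0.207, and under median-of-ratios scaling (0.0532) and quantile normalization (0.0616). Its log2 fold change was -0.50 without depleted replicate 2. CEP350, a protein of the centrosome, was at 2.89 ± 0.180 and 2.25 ± 0.678 FPKM (-0.39, adjusted p = 0.295), and its log2 fold change was -0.13 without depleted replicate 2.

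The subdistal appendages, the second set of appendages, which lies below the first and anchors microtubules, had the lowest median of the 5 lists. All 6 of their tested genes were called lower, with a median log2 fold change of -1.21, and the other 2 of the 8 listed (CCDC120 and CCDC68) were under the filter. CCDC120 was at 0.610 ± 0.135 and 0.585 ± 0.149 FPKM, and CCDC68 at no more than 0.0350 FPKM in any sample. CNTRL was at 2.57, 2.38 and 2.56 FPKM in the control samples and at 0.525, 0.379 and 0.841 FPKM in the depleted samples (log2 fold change -1.99, SE 0.299, adjusted p = 0.00104). CEP170 went from 37.1 ± 1.77 to 14.8 ± 4.10 FPKM (-1.36, SE 0.187, adjusted p = 0.000563) and TCHP from 7.24 ± 0.760 to 3.19 ± 0.298 FPKM (-1.16, SE 0.155, adjusted p = 0.000478). All 3 kept their call with any 1 sample left out, and 5 of the 6 genes were called without control replicate 2 or without control replicate 3. Without depleted replicate 2, CNTRL, CEP170 and TCHP were at -1.76, -1.13 and -1.14. NIN, CEP128 and ODF2, named after their values were seen, were at -1.27, -1.14 and -0.78. Some reads of CEP170 may belong to its pseudogene CEP170P1, which was at no more than 0.965 FPKM. Thus 2 of 8 distal and 6 of 6 tested subdistal appendage genes were called lower, where 11.9% of all genes tested were. For mRNAs of 3000 to 6000 and over 6000 bases, where all 6 lie, that share was 14.8% and 14.4%. Without the filter on low expression the counts were 0 of 8 and 5 of 8, where 823 of 28501 genes were called lower. The difference between the lists was not tested. Nor was the part in it of the lower expression of genes of dividing cells.

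The cap at the distal end, which TTBK2 helps to remove, had 2 of 6 genes called lower, with a median of -0.34. Over all genes tested, 11.9% were called lower. KIF24, a kinesin of the cap, went from 1.55 ± 0.210 to 0.615 ± 0.00893 FPKM (log2 fold change -1.20, SE 0.28, adjusted p = 0.0135), and CCP110, the cap protein itself, from 4.46 ± 0.231 to 2.79 ± 0.424 FPKM (-0.67, SE 0.173, adjusted p = 0.0222). KIF24 was not called without control replicate 1 (adjusted p = 0.0535) and was under the filter without control replicate 3. CCP110 was not called without control replicate 1, 2 or 3, with adjusted p up to 0.0845. CEP97, which binds CCP110, was at 2.63 ± 0.188 and 1.94 ± 0.530 FPKM (-0.45, adjusted p = 0.218), and its log2 fold change was -0.22 without depleted replicate 2.

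The ciliary vesicle is the membrane that meets the distal appendages. Of 13 genes for its docking and growth, 1 was called lower, where 11.9% of all genes tested were, and the median was -0.16. This was MYO5A, a motor that carries vesicles to the appendages, at 8.40 ± 0.429 and 4.67 ± 1.28 FPKM (log2 fold change -0.87, SE 0.195, adjusted p = 0.0109). EHD1, which reshapes the vesicles, was at 36.0 ± 1.87 and 46.4 ± 6.37 FPKM (0.36, adjusted p = 0.0941), and DZIP1 was at 8.70 ± 0.468 and 6.71 ± 0.863 FPKM (-0.38, adjusted p = 0.101). EHD1 was called higher under quantile normalization (adjusted p = 0.0368) and with array weights (adjusted p = 0.0366), but under no other alternative. Without the filter on low expression, KIAA0586, CCP110 and MYO5A lost their calls (adjusted p = 0.160, 0.0730 and 0.0887).

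**Figure D4:**
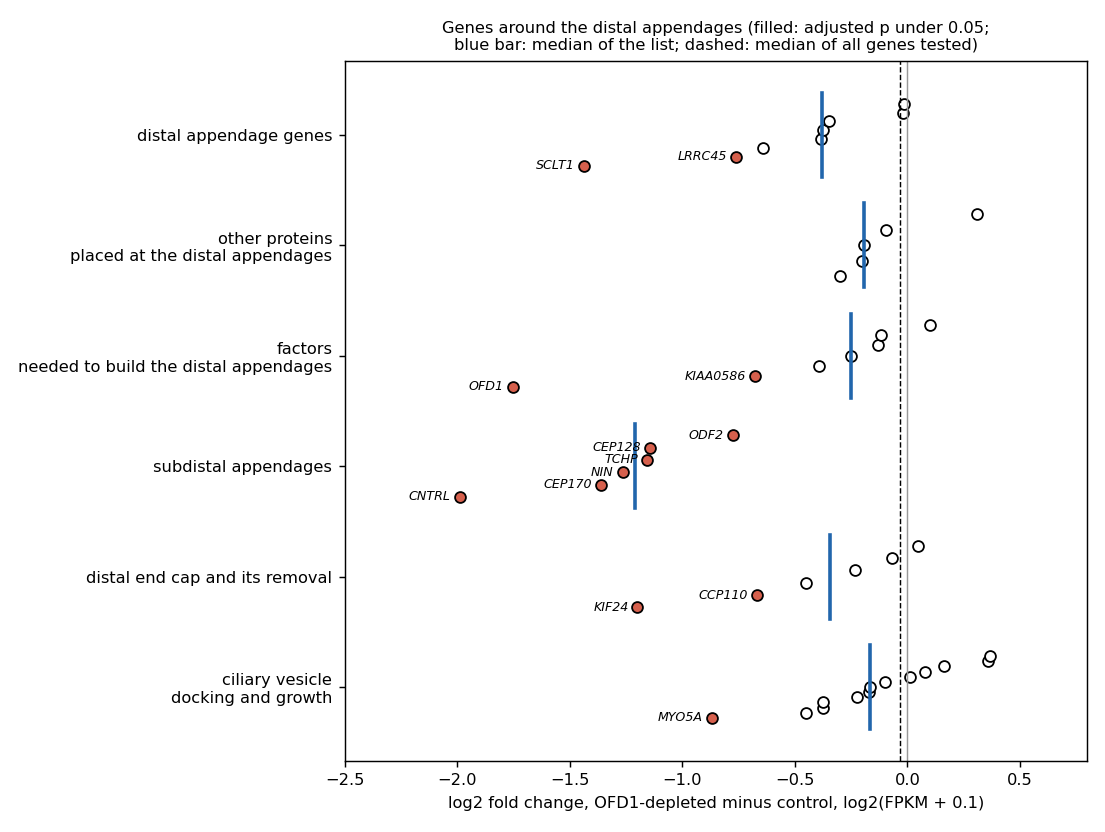
Log2 fold change (OFD1-depleted minus control) of the 8 distal appendage genes and of 5 lists of neighbouring genes, 1 point per tested gene, filled and named where the adjusted p was under 0.05, with the median of each list in blue and that of all genes tested dashed. All 6 tested subdistal appendage genes are filled, against 2 of 8 distal appendage genes, where 11.9% of all genes tested were called lower.

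Several members overlap other genes, and how the counting treated strand is not given in the sources used here. SCLT1 shares 10304 bases with JADE1 on the other strand, which was at 8.65 ± 0.305 and 7.02 ± 0.467 FPKM (log2 fold change -0.30, adjusted p = 0.149), against -1.44 for SCLT1. LRRC45 shares 803 bases with CENPX on the other strand, whose depleted values were 26.4, 52.4 and 21.7 FPKM, the highest being depleted replicate 2, where LRRC45 was also highest among the depleted samples. CEP164 shares 1703 bases with BACE1 on the other strand, which fell (18.6 ± 0.748 to 10.5 ± 1.34 FPKM, adjusted p = 0.00186) while the log2 fold change of CEP164 was -0.02. FBF1 lies over AC087289.3 on the same strand for 20556 bases, which was at 0.725 ± 0.589 and 0.460 ± 0.419 FPKM, so the value of FBF1 is uncertain. The pseudogenes of ANKRD26 and CEP164 and the related kinase gene TTBK1 were at 0 or near it, with 0.0531 FPKM the highest value.

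Over the 6 samples, the tested genes with the pattern most like the members' mean standardized profile were NBPF20 (r = 0.998), HMGB1P10 (r = 0.998) and CDK14 (r = 0.997). These are the closest of 12025 genes over 6 points in 2 groups, and the values of NBPF20, of a near-identical gene family, and of the pseudogene HMGB1P10 are uncertain. CDK14, a cyclin-dependent kinase, was at 4.46 ± 0.117 FPKM in the control samples and 3.21 ± 0.706 FPKM in the depleted samples.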

How the data were processed

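Each gene was measured by RNA-seq (150 bp paired-end reads, directional library kit) in 6 samples. The authors aligned the reads to GRCh38 with HISAT2 2.0.5 and deposited FPKM values per gene from StringTie. The submitters' processing notes name both tools, and the version of StringTie is not given in the sources used here. The annotation was Ensembl version 94 by the methods. FPKM are scaled to gene length and to the mapped fragments of a sample, so 1 value depends on all others in its sample. No counts were used, depth is unknown, and no interval of counting error is given.

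Groups came from the sample labels. By the paper's legends the columns are biological replicates. The 12025 genes whose mean reached 1 FPKM were tested with limma 3.58.1 (R 4.3.3, variance trended on the mean) on log2(FPKM + 0.1). Two-sided p-values were Benjamini-Hochberg adjusted across these genes, and the procedure was tested on simulated data. The FPKM of each member, listed gene and marker were also permuted exactly. mRNA lengths are of the canonical transcript in GENCODE version 44 (99.8% of tested genes matched) and promoters from RefSeq. CEP15 was matched by its older symbol, C3orf14.

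The members, lists, markers and motifs were chosen with earlier results of these data known. The genes named are the 8 members, OFD1, the 3 tested genes of smallest p in each list, and the 3 tested genes most correlated with the members' mean standardized profile. Others are given with their reason. Alternatives were other pseudocounts, filters, scalings and weights, protein-coding genes only, replicate number as a block, and each sample left out.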

Additional observations from a re-analysis of the deposited data

How the results depend on the processing

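Of 445 values recomputed for 27 results under 17 alternatives, 399 kept their direction and their side of the threshold or, for counts, stayed within 1.5 times. The 1429 lower and 610 higher genes became 1988 and 268 with each sample scaled to the same total, 1316 and 854 with median-of-ratios scaling and 1311 and 1093 with quantile normalization. Scaling to the same total shifted the median log2 fold change over the tested genes by -0.145, to -0.176, where CEP89 and CEP164 were at -0.16. The direction of the other 6 members was below 0 under every alternative that tested them.

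Genes called numbered 2039 over all genes, 1083 without a filter, 3956 with array weights (OFD1-depleted replicate 2 had the lowest weight, 0.203) and 1138 to 2863 with 1 sample left out (1143 without control replicate 1 and 1138 without control replicate 3). Members called numbered 2, then 0 without a filter (2 with an unadjusted p under 0.05 in limma), 1 of 3 tested with a filter of 5 FPKM, and 1 to 2 with 1 sample left out. Genes called in the related lists numbered 11, then 7 without a filter, 4 of 19 with the filter of 5 FPKM, and 7 to 11 with 1 sample left out. Subdistal appendage genes called numbered 6, then 5 of 8 without a filter and 3 of 3 with the filter of 5 FPKM. Over all genes, 1436 of 7883 were called with the filter of 5 FPKM (964 lower). Without a filter 1083 of 28501 were called (823 lower). Without a filter more genes were tested (28501), and with the filter of 5 FPKM fewer members were. CEP89 was at 0.038 under median-of-ratios scaling, 0.10 under quantile normalization and 0.057 with array weights, and between -0.112 and 0.0695 with 1 sample left out. CEP164 was at 0.033 under median-of-ratios scaling and 0.10 under quantile normalization, and between -0.0989 and 0.0661 with 1 sample left out. For the rest the cause was not tested.

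Samples of both groups carry the numbers 1 to 3. Deviations of same-numbered samples correlated at 0.0579, 0.0481 and 0.0110, and those of differently numbered samples at -0.080 to 0.050. The numbers were not taken to pair the samples, which these small values do not settle. With replicate number as a block, 2296 genes were called over all genes (1534 lower, 762 higher), 2 members and 11 genes of the related lists. The adjusted p from limma was then 0.000366 for SCLT1 and 0.00757 for LRRC45.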
